A study of Mus musculus with 6 samples.

Results

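A set of 10 marker genes of T cells and natural killer (NK) cells was followed through 6 RNA-seq libraries of mouse sciatic nerve. They were taken by gene symbol from the deposited transcript tables, and they are 10 of 54309 genes in those tables. They fall into the invariant chains of the T cell receptor complex (Cd3d, Cd3e, Cd3g), the constant regions of the receptor beta chain (Trbc1, Trbc2), the kinase gene Lck, and the NK and cytotoxic genes Ncr1, Nkg7, Gzma and Gzmb. They were chosen by their low read counts and TPM in these same libraries, with earlier results known, so their levels and the differences between the sexes are given as a description. The tissue was left sciatic nerve, its distal part, from C57BL/6 mice aged 6 to 8 weeks, taken 24 h after surgery, with 3 libraries from females and 3 from males and the nerves of 2 animals pooled in each library. The labels name axotomy, the cutting of the nerve, as the treatment of all 6 libraries, while the written procedure describes a sham operation that exposed the nerve without cutting it. By its title, the study asks how the sexes differ in early transcription of the degenerating nerve.

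T cells recognise antigen through a receptor made of an alpha and a beta chain, or a gamma and a delta chain, and the receptor signals through the CD3 chains that travel with it to the cell surface. Lck is the kinase that starts this signal by phosphorylating the CD3 chains, and it is also made in NK cells. NK cells carry no rearranged receptor; they recognise stressed or infected cells through germline receptors such as NKp46, the product of Ncr1, and kill them with perforin and granzymes, as cytotoxic T cells do. A healthy nerve holds few lymphocytes, and T cells are known to enter a degenerating nerve later than neutrophils and macrophages.

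The libraries held 55272138 to 77610593 estimated reads. A count of 0 would allow up to 3 reads, which is at most 0.0543 CPM (counts scaled to library size) in any library, for counting error only. Sex labels matched the sex-linked genes: females had 708 to 901 CPM of Xist and males 0.232 to 3.51, and females had 0 to 0.157 CPM of Ddx3y and males 76.7 to 88.3. Female 2 and male 1 stood apart by skeletal muscle transcripts: 10 muscle genes summed to 1345 TPM in female 2 and 686 TPM in male 1, against 20.2 and 29.3 TPM in females 1 and 3 and 13.4 and 11.3 TPM in males 2 and 3. TPM is Salmon's level per transcript length, used below wherever genes are compared with each other.

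The beta-chain constant regions are shown first because reads from much of their length can hardly tell the pair apart. In GENCODE M21, the transcripts Trbc1-202 and Trbc2-201, on the plus strand of chromosome 6 in build GRCm38, differ at 1 of their first 360 positions. Over the next 120 positions, which are coding and are printed here from 361 to 480 counted from the 5′ end, they differ at 14, shown in capitals.
Trbc1-202: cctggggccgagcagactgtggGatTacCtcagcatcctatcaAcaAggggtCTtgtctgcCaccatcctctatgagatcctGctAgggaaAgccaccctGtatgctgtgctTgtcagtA
Trbc2-201: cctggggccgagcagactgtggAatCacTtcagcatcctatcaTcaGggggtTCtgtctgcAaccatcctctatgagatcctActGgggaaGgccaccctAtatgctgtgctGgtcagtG
Pairs of 100 nt reads that lie wholly within the first 360 positions fit both transcripts almost equally. A pair with a mate in positions 361 to 480 can tell them apart. The counts of Trbc1 and Trbc2 thus rest in part on Salmon's division of the former pairs, and the sum of both genes is the firmer value. Both transcripts have the same length in the release used for these sequences and in the deposited tables, 737 and 692 bases.

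Windows before the transcription starts of the CD3 genes and of Lck follow, because the CD3 genes lie together on chromosome 9 and Lck has a pair of separate starts on chromosome 4, both of which were quantified. Sequences and coordinates are from RefSeq, build GRCm38.p6, and run 5′ to 3′ up to the first base before the most upstream annotated start. Capitals mark AGGAAG (a core of ETS family sites), CACCTG (an E-box) and TGTGGT (a RUNX core) on either strand. These motifs were chosen after the sequences had been read, and none of their matches overlap.
Cd3g, chr9:44980432-44980681, minus strand: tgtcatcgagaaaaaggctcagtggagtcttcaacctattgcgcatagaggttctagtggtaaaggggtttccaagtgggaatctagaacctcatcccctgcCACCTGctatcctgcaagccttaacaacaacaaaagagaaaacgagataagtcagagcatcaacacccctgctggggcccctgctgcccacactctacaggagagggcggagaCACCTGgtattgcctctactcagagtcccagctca
Cd3d, chr9:44981536-44981785, plus strand: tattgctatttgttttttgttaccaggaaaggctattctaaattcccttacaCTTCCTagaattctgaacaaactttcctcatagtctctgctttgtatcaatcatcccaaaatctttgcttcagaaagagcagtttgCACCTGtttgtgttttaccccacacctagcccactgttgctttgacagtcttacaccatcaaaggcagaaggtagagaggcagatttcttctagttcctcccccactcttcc
Cd3e, chr9:45009628-45009861, minus strand: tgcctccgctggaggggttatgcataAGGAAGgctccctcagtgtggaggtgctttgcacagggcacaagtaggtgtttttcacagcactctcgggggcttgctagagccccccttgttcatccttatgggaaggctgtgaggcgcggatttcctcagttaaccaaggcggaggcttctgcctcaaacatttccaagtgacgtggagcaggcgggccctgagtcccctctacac
Lck distal start, chr4:129573642-129573891, minus strand: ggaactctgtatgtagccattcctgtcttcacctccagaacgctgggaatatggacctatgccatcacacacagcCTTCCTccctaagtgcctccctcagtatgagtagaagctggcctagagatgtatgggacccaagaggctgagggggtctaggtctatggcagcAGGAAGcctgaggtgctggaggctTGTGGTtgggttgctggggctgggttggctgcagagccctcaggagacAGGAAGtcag
Lck proximal start, chr4:129558392-129558622, minus strand: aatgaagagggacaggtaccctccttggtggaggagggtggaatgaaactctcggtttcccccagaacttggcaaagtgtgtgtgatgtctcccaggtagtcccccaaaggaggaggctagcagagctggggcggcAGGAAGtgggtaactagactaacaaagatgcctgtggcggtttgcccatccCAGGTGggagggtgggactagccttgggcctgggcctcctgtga
Cd3g and Cd3d are read away from each other, with starts 1355 bases apart. The window of Cd3g held 2 CACCTG matches, that of Cd3d 1 AGGAAG and 1 CACCTG, and the printed part of that of Cd3e 1 AGGAAG. The distal Lck window held 3 AGGAAG matches and 1 TGTGGT, and the proximal one 1 AGGAAG and 1 CACCTG. In windows of 250 bases before the start, 8 of the 10 genes had an entry. Lck and Ncr1 had a pair of windows each, which made 10 windows. Those of Ncr1 overlap almost fully and hold the same 2 TGTGGT matches, so they are not separate. By gene, AGGAAG was found in 4 of the 8, CACCTG in 4 and TGTGGT in 5. By window, AGGAAG was found in 5 of these 10 windows, CACCTG in 4 and TGTGGT in 6. Among all 32851 such mouse windows the shares were 29.5% for AGGAAG, 17.2% for CACCTG and 14.0% for TGTGGT. A match describes the letters and not a binding site.

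All 10 genes were detected in all 6 libraries, at 25 to 242 estimated reads, above both 3 and 10 reads in each. Levels ran from 0.398 TPM for Cd3e in female 3 to 8.53 TPM for Gzma in male 3. All 10 passed the filter on low counts, which the higher sex alone could satisfy, and lay between the 18.9th and 30.7th percentile of the 19129 genes kept, by mean CPM. Together they summed to 17.4, 23.2 and 15.8 TPM in females 1 to 3 and 30.8, 24.1 and 37.7 TPM in males 1 to 3. In a bulk sample, fewer cells of a type and less RNA per cell cannot be told apart.

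**Figure D1:**
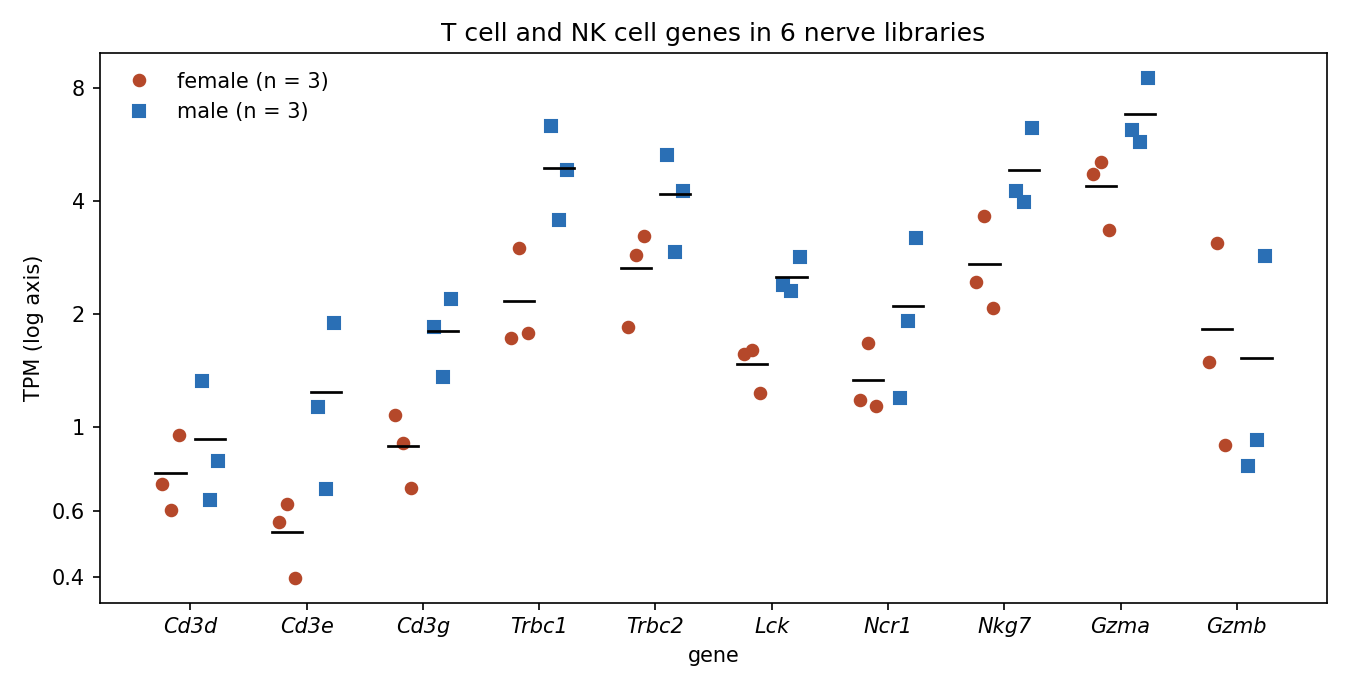
Level of each T cell and NK cell gene in TPM (log axis) in 3 female (circles) and 3 male (squares) libraries, with the mean of each sex as a line. Values run from 0.398 to 8.53 TPM, Gzma has the highest means in both sexes, and Gzmb is the one gene with a higher female mean.

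By mean TPM over the 6 libraries, Gzma, the tryptase-like granzyme of NK and cytotoxic T cells, stood highest at 5.62 ± 1.73 TPM (SD, n = 6). It was above Nkg7 in all 6 libraries and below Trbc1 in male 1, where Trbc1 had 6.35 TPM and Gzma 6.21 TPM. Nkg7, which encodes a granule membrane protein of cytotoxic cells, came next at 3.78 TPM (2.08 to 6.29 TPM), followed by Trbc1 at 3.55 ± 1.80 TPM and Trbc2 at 3.42 ± 1.21 TPM. The order of these neighbours was not fixed: Nkg7 was above Trbc1 in 5 libraries, and Trbc1 above Trbc2 in 4. Lck (1.99 ± 0.61 TPM) was below Trbc2 in all 6 libraries. Lck, Ncr1 (1.72 ± 0.79 TPM) and Gzmb (1.68 ± 1.04 TPM) each stood above the next in 4 libraries, so that their levels did not differ beyond the spread. The CD3 chains were lowest, with Cd3g at 1.35 ± 0.58 TPM above Cd3e (0.884 ± 0.556 TPM) in all 6 libraries, while Cd3e and Cd3d (0.841 ± 0.271 TPM) each led in 3. Every pair of neighbours had overlapping ranges over the 6 libraries.

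Among the CD3 chains, Cd3g had 46, 35 and 31 reads in females 1 to 3, against 92, 42 and 71 reads in males 1 to 3. Every female library was below every male one once scaled for depth, with 0.512 ± 0.109 CPM in females and 1.07 ± 0.324 CPM in males (SD, n = 3 each). The log2 fold change, female minus male, was -1.06 (SE 0.30), and the gene did not pass the threshold of an adjusted p under 0.05 in edgeR's quasi-likelihood test over all genes (adjusted p = 0.195). Cd3e, whose product pairs with both of the other CD3 chains, had 34, 35 and 25 reads in females and 72, 35 and 69 in males. Its scaled levels were likewise lower in each female than in each male library, with 0.432 ± 0.0942 CPM in females and 0.928 ± 0.335 CPM in males, with a log2 fold change of -1.10 (SE 0.33). The margin was small, since female 2 stood at 0.508 and male 2 at 0.580 CPM. Cd3d had 27, 41 and 53 reads in females and 106, 38 and 44 in males. Here the groups overlapped, male 1 stood alone as the highest library, and the log2 fold change was -0.78 (SE 0.37) with all libraries and -0.36 without male 1. Summed over the 3 genes, CD3 reads numbered 107, 111 and 109 in females and 270, 115 and 184 in males. That sum was nearly the same in all females and varied among males, where male 2 stood nearest to the females.

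The beta-chain constant regions followed the CD3 chains. Trbc1 had 43, 66 and 45 reads in females and 171, 72 and 90 in males, that is 0.710 ± 0.216 CPM in females and 1.70 ± 0.545 CPM in males. Every female was below every male, and the log2 fold change of -1.26 (SE 0.31) was the one farthest from 0 among the 10 genes. Trbc2 had 42, 58 and 75 reads in females and 131, 55 and 73 in males, with overlapping groups and a log2 fold change of -0.73 (SE 0.31), or -0.48 without male 1. Reads of the pair together, which do not depend on how reads were shared between them, numbered 85, 124 and 120 in females and 302, 127 and 163 in males. Scaled, the sum was 1.15, 1.80 and 1.57 CPM in females and 4.02, 2.10 and 2.95 CPM in males, and the groups did not overlap. The ratio of Trbc1 to Trbc2 in TPM was 0.932, 1.04 and 0.552 in females and 1.19, 1.21 and 1.13 in males.

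Lck had 118, 123 and 103 reads in females and 242, 129 and 178 in males, or 1.58 ± 0.221 CPM in females and 2.86 ± 0.626 CPM in males. All females were below all males, with a log2 fold change of -0.86 (SE 0.22; adjusted p = 0.166 by edgeR). Lck is transcribed from a proximal start, known for its use in thymocytes, and from a distal start that serves mature T cells; their starts lie 15250 bases apart. The distal transcript Lck-202 took 68.8, 113 and 62.7 reads in females and 221, 73.8 and 154 in males. The proximal transcript Lck-201 was given 32.0, 0 and 29.3 reads in females and 5.4, 34.1 and 11.8 in males. The distal share of reads from either start was 68.3%, 100% and 68.2% in females and 97.6%, 68.4% and 92.9% in males. It was thus high in female 2, male 1 and male 3 and near 68% in the other libraries, with no division by sex. In GENCODE M21 these transcripts differ in their first exons alone, and at these counts the division between them is Salmon's estimate from few reads.

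**Figure D2:**
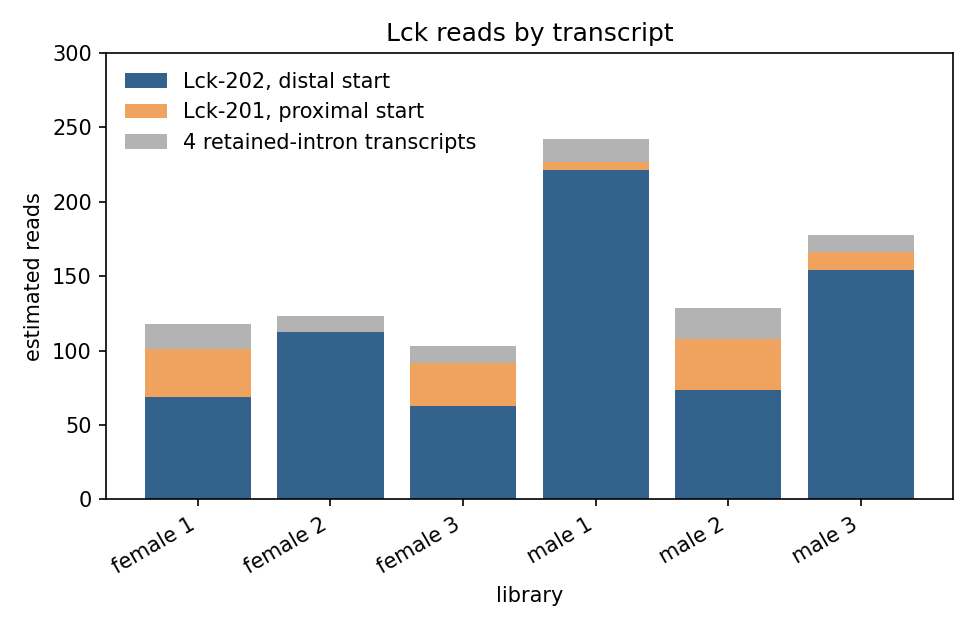
Estimated reads of Lck in each library (3 female, then 3 male), stacked by transcript: the distal-start Lck-202, the proximal-start Lck-201, and 4 retained-intron transcripts. Lck-202 holds most reads in every library, from 62.7 in female 3 to 221 in male 1, and Lck-201 holds none in female 2.

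Reads of the 10 genes lay mostly on coding transcripts. Retained-intron transcripts took 11.4% of Cd3e reads over the 6 libraries, 9.71% of Lck reads, 7.93% of Cd3g reads and 1.07% of Cd3d reads, and 0% of Nkg7 reads. No transcript of that kind is listed for the other 5 genes. Cd3e had the lowest coding share of a single library, 80.0% in male 2. The retained-intron Cd3d-203, 299 bases long, held 1.9 reads in female 1 and 1.4 in female 3. In female 1 Cd3d had 27 reads and 0.705 TPM, against 41 reads and 0.603 TPM in female 2, where Cd3d-203 had 0 reads. The lead of Cd3d over Cd3e in the TPM of female 1 was not tested without Cd3d-203. On the log2(TPM + 1) scale Cd3d had a difference of -0.13, and on the log2(TPM + 0.1) scale -0.23, against -0.78 from the counts. The parts of the pseudocount and of this transcript in that gap were not tested.

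Ncr1 had 71, 90 and 70 reads in females and 79, 94 and 138 in males. The groups overlapped, with 1.06 ± 0.214 CPM in females and 1.70 ± 0.733 CPM in males, with a log2 fold change of -0.67 (SE 0.33); without male 3, the highest library, it was -0.30. Nkg7 had 74, 97 and 63 reads in females and 137, 97 and 135 in males, and its scaled level was lower in each female library (1.08 ± 0.300 CPM) than in each male one (1.96 ± 0.433 CPM), with a log2 fold change of -0.86 (SE 0.26). Gzma had 145, 141 and 106 reads in females and 214, 147 and 197 in males, again with no overlap of the scaled levels, which were 1.80 ± 0.361 CPM in females and 2.95 ± 0.571 CPM in males. Its log2 fold change was -0.71 (SE 0.22). Female 3 was the lowest and male 3 the highest library for all 3 of these genes.

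Gzmb, the granzyme that cleaves after aspartate and starts apoptosis in target cells, had a different profile. It had 87, 166 and 54 reads in females and 51, 44 and 122 in males. Female 2 (2.41 CPM) and male 3 (2.21 CPM) stood above the other 4 libraries, which lay between 0.679 and 1.18 CPM, so that each sex held 1 high library. The log2 fold change was 0.26 (SE 0.61), the only one above 0 among the 10 genes, and it changed sign in 3 of the 6 fits that left out 1 library. Its variance over its mean within a sex was 36.8 in females and 42.8 in males, where counting error alone gives about 1. For the other 9 genes this measure was 1.41 to 5.70 in females and 6.56 to 21.6 in males. The measure was higher among males than among females for each of the 10 genes, a comparison that was not tested. The genes share libraries, so these are not 10 separate observations. All but Gzmb also had the higher mean in males, and the measure was not separated from the mean.

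**Figure D3:**
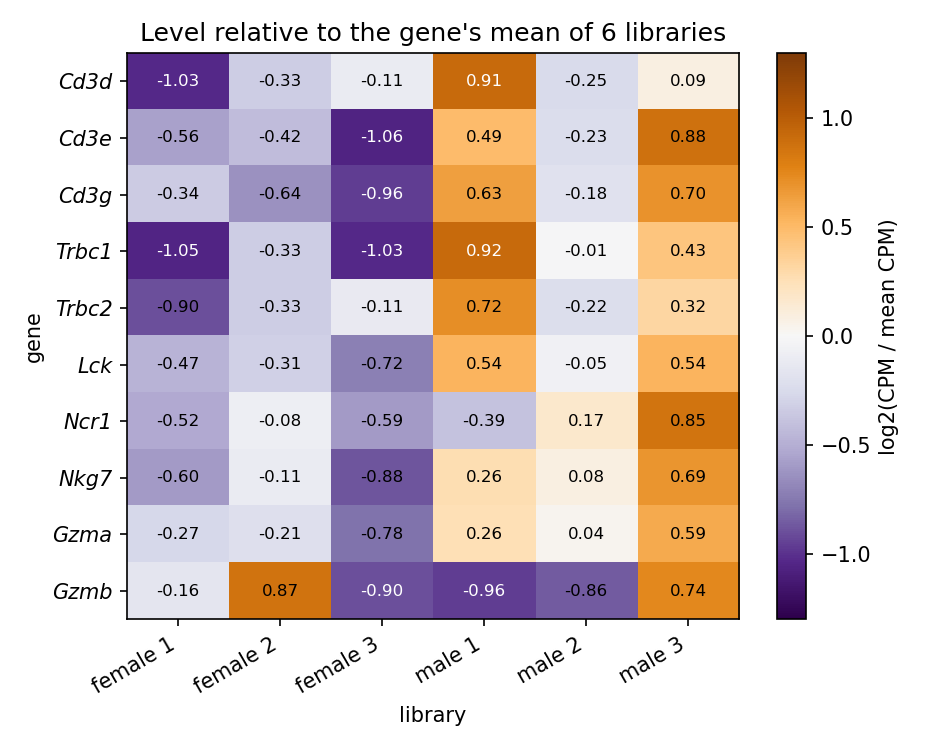
Level of each gene in each library as log2 of its CPM over its mean CPM of the 6 libraries (columns: 3 female, then 3 male libraries; rows: the 10 genes). Male 1 is highest for Cd3d, Trbc1 and Trbc2, male 3 is highest for Ncr1, Nkg7 and Gzma, and Gzmb is high in female 2 and male 3.

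Over all 19129 genes tested, 21 passed the threshold (0.110%), 3 higher and 18 lower in females, and none of the 10 genes was among them. Xist, at a log2 fold change of 9.05, did not pass either (adjusted p = 0.114 by edgeR). Ddx3y passed at -10.4 (adjusted p = 0.00324 by edgeR). The lack of a call therefore does not show that the sexes were alike. Adjusted p-values of the 10 genes by edgeR ran from 0.165 for Trbc1 to 0.887 for Gzmb. Of the 10, 7 had an unadjusted p under 0.05, a mark that 14.55% of all genes tested reached. DESeq2 called Trbc1 (adjusted p 0.0108) and Lck (adjusted p 0.0128) lower in females, among 871 genes it called in all. The log2 fold change was below 0 for 9 of the 10 genes, with a median of -0.82, against 46.4% of all genes tested and a median of 0.016. In 6 of the 10, every female library was below every male one, as it was for 11.5% of all genes tested. The genes share cells and libraries, so the 6 are not separate observations, and they were picked with such values known. Without female 2 and male 1, the libraries with muscle transcripts, the median was -0.90 and no gene of the 10 passed.

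**Figure D4:**
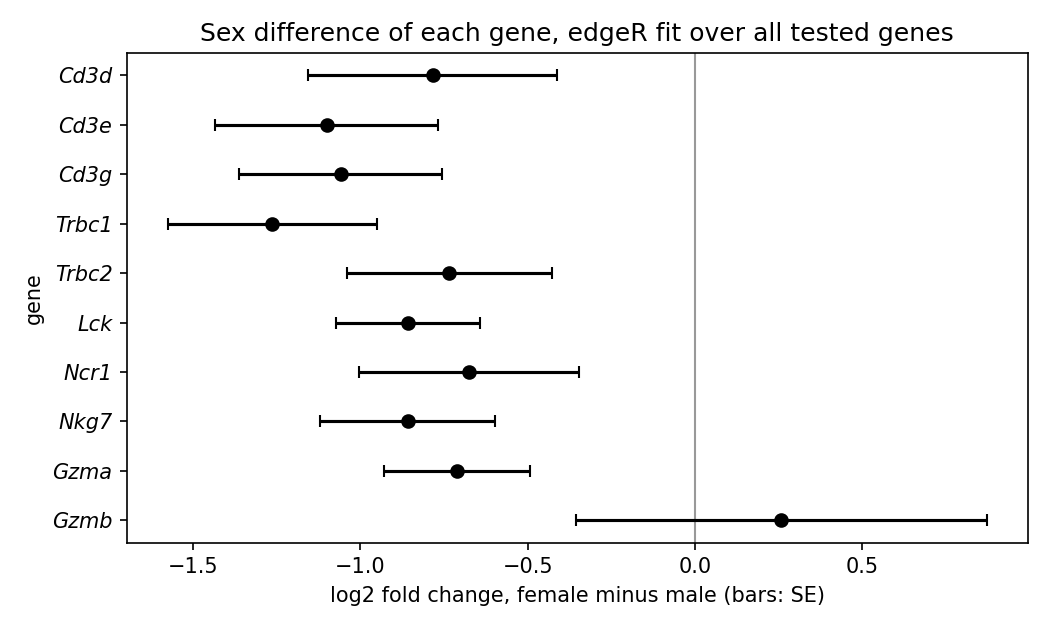
Log2 fold change, female minus male, of each gene from edgeR's fit over all genes tested, with its standard error as a bar. Of the points, 9 lie below 0, from -1.26 for Trbc1 to -0.67 for Ncr1, and Gzmb lies at 0.26 with the widest bar.

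T cells beyond the 10 genes were followed through the receptor itself. Trac, the alpha-chain constant region, had 91, 73 and 95 reads in females and 172, 86 and 104 in males, with no overlap of the scaled levels and a log2 fold change of -0.66 (SE 0.22; adjusted p = 0.239 by edgeR). Of 35 beta-chain variable segments, 2, 3 and 4 reached 3 reads in females and 11, 2 and 12 in males, and none reached 10 in any library. Male 1 and male 3, which held most segments, also had the most CD3 reads. Of 113 alpha-chain variable segments, 2 to 5 reached 3 reads in females and 2 to 4 in males. Joining segments of both chains had 0 reads in all 6 libraries, although Trac had reads in each. Whether reads can be assigned to such short segments was not tested, so this 0 says nothing about the presence of T cells. Of a list of 10 gamma-delta T cell genes, 6 were tested, all below 0 (median -0.93) against 46.4% of all genes tested, and none passed. They ran from -0.03 for Sox13 to -1.11 for Trdc. Of these genes Il17rb is also in the list of type 2 innate lymphoid genes and Blk in that of B cell genes. Trdc, the delta-chain constant region, had 208, 125 and 151 reads in females and 720, 139 and 130 in males: male 1 stood far above the other 5 libraries, and the gamma-chain constant region Trgc1 had only 6, 16 and 8 reads in females and 21, 14 and 19 in males.

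In a list of 18 other genes of the receptor complex and its signalling, none passed the test in either direction, 13 had a log2 fold change below 0 and the median was -0.36. Its most abundant members were Fyb (0.49) and Lcp2 (0.33), adaptors, and Vav1 (0.32), an exchange factor, all of which myeloid cells also make; each was higher on average in females. Of 22 genes of T cell surface and lineage none passed, and 16 were below 0 (median -0.25). Cd7, a surface protein of T and NK cells, averaged 3.23 ± 0.423 CPM in females and 6.03 ± 0.371 CPM in males, with no overlap (log2 fold change -0.90; adjusted p = 0.0844 by edgeR). Il7r, a cytokine receptor that other cells also carry, lay the other way at 0.92, as did the chemokine receptor gene Ccr7 at 0.57. The coreceptor genes, named after their values were seen, overlapped between the sexes: Cd4 had 66, 138 and 90 reads in females and 97, 89 and 102 in males, and Cd8a had 49, 54 and 77 in females and 88, 50 and 70 in males. Cd4 is also made by some macrophages.

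Of 29 genes of NK receptors and identity, 27 were kept by the low-count filter and none passed; 19 were below 0 (median -0.37) and 12 had every female below every male, against 46.4% and 11.5% of all genes tested. Its most abundant members were the adaptor Tyrobp (0.18), the Fc receptor Fcgr4 (0.19) and the surface protein Slamf7 (0.84). These are also made in myeloid cells and did not share that direction. The chemokine gene Ccl5, next in abundance, was at -0.19 (SE 0.41) with overlapping groups, and the adaptor Hcst was at 0.01. The NK receptor genes spread widely. Among those nearer to 0 or above it, Klrd1 was at -0.31, Klrk1 at -0.33, Klrg1 at -0.37, Klra7 at -0.39 and Klri1 at 0.23. Among the members farthest below 0 were Klra8, Xcl1 and Klrb1c; all 8 of these genes were named after their values were seen. Klra8, the activating receptor Ly49H, had 49, 43 and 36 reads in females and 114, 88 and 108 in males (-1.48; adjusted p = 0.0844 by edgeR). Klrb1c, the NK1.1 antigen, had 111, 105 and 107 reads in females and 199, 161 and 224 in males (-1.08), and the chemokine gene Xcl1 11, 13 and 12 in females and 36, 27 and 19 in males (-1.36). In none of these 3 genes did the sexes overlap once scaled for depth.

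Of 19 other cytotoxic granule genes 12 were kept and none passed, with 5 below 0 and a median of 0.04. Srgn (0.17), Lamp1 (-0.03) and Ctsc (0.13), which encode granule and lysosome components of many cells, were its most abundant members. Perforin (Prf1, named after its values were seen) had 43, 60 and 40 reads in females and 96, 86 and 84 in males, with a log2 fold change of -1.09 (SE 0.24; adjusted p = 0.143 by edgeR) and no overlap. Crtam, a surface protein of activated cytotoxic cells that was also named after its values were seen, lay the other way at 0.44. Of the other granzymes, Gzmm had 36 to 58 reads in all libraries and a log2 fold change of 0.06, Gzmk at most 12, and 5 genes of the list had fewer than 3 reads in every library.

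**Figure D5:**
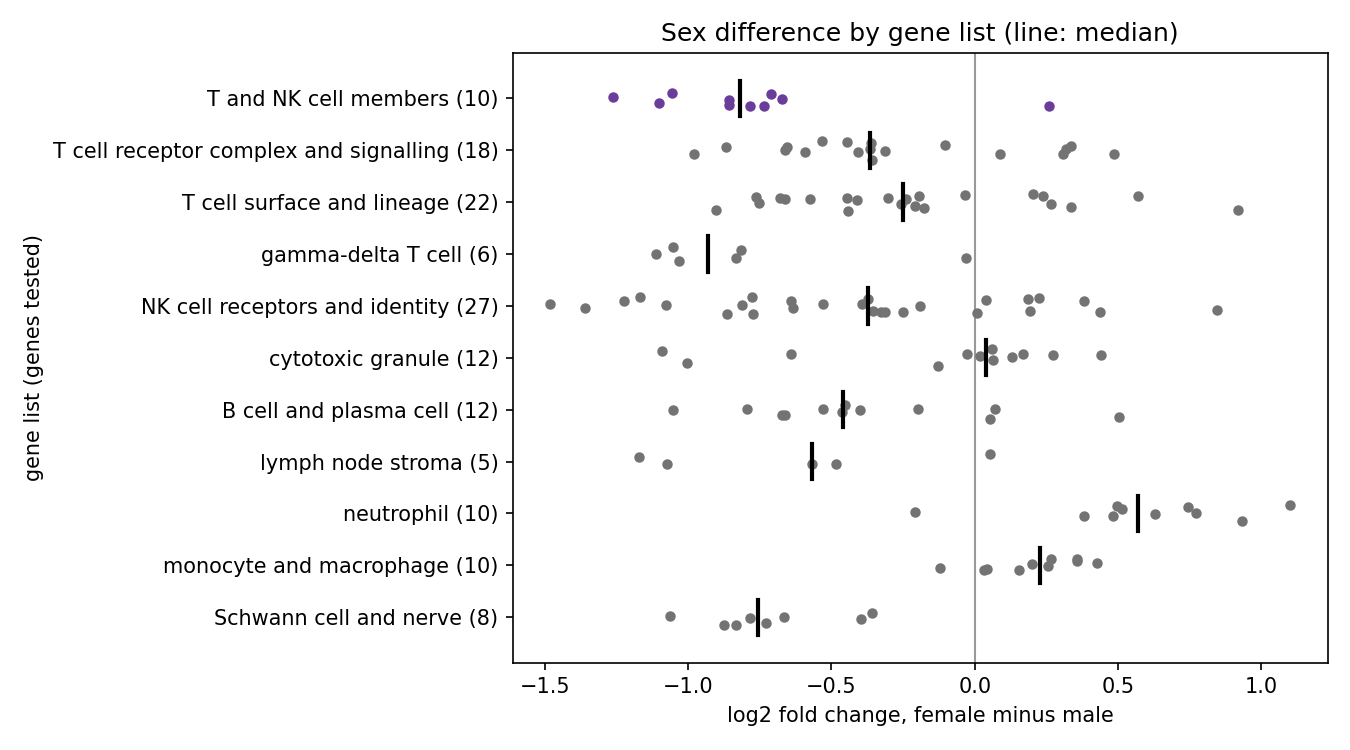
Log2 fold change, female minus male, of each tested gene (points) in the 10 T and NK cell genes and in 10 other gene lists, with the list's median as a line and the number of genes tested in brackets. The medians run from -0.93 for gamma-delta T cell genes to 0.57 for neutrophil genes.

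Markers of other cells moved between the libraries as well. All 8 Schwann cell and nerve genes had every female below every male, as 11.5% of all genes tested did, with summed levels of 10782 to 16722 TPM in females and 22233 to 28125 TPM in males. Of 12 B cell genes tested, 9 were below 0 (median -0.46). The summed level of the list was 33.0 to 37.3 TPM in females and 37.6 to 53.4 TPM in males. Most of that sum was Ighm (-0.45), at 25.1 to 30.2 TPM in females and 29.6 to 42.6 TPM in males. The next most abundant members, Cd79b (0.07) and Cd22 (0.50), lay the other way. Lymph node stroma genes were below 0 in 4 of 5 tested (median -0.57). They summed to 127 to 171 TPM in females and 166 to 334 TPM in males. The highest sum was in male 3, where Cxcl13 had 150 TPM, against 32.0 to 46.1 TPM in the other libraries. Ccl19, a chemokine that attracts T cells, had a log2 fold change of -1.17 with no overlap of the sexes. The more abundant chemokine gene Ccl21a was at -0.48 (SE 0.51), and there the sexes overlapped. Glycam1, a marker of lymph node vessels, had 0 to 3 reads in females and 5 or 6 in males. Neutrophil genes were above 0 in 9 of 10 tested (median 0.57), at 2898 to 5895 TPM in females and 2106 to 4419 TPM in males, and monocyte and macrophage genes in 9 of 10 (median 0.23), at 4013 to 5437 TPM in females and 3345 to 4908 TPM in males. Mast cell genes, among them other granule proteases, were below 0 in 6 of 9 (median -0.19) and summed to 145 to 228 TPM in females and 151 to 220 TPM in males. Type 2 innate lymphoid genes were below 0 in 4 of 7 tested (median -0.02). Their most abundant member, Il1rl1, lay above 0 at 0.69 (SE 0.26). The defining cytokine genes Il13 and Il5 were named after their values were seen. Il13 had at most 1 read in a library, and Il5 had 8, 2 and 5 reads in females and 2, 1 and 1 in males. Adipocyte genes were above 0 in all 7 (median 0.44) and summed to 766 to 2452.5 TPM in females and 988 to 1619 TPM in males. Skeletal muscle genes were above 0 in all 10 (median 0.87), at 20.2 to 1345 TPM in females and 11.3 to 686 TPM in males. Female 2 was the highest library in both sums, and the sexes overlapped in both. No gene of these lists passed the test, and the part of these cells in the levels of the 10 genes was not tested.

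CD3 levels were set against those of Ncr1, Nkg7 and Gzma, of which Nkg7 and Gzma are also made in cytotoxic T cells. The ratio of the CPM sums was 0.369, 0.338 and 0.456 in females and 0.628, 0.340 and 0.391 in males. Male 1 was thus high for CD3 genes relative to these genes. Whether the other ratios differ beyond counting error was not tested. Profiles were compared by the root mean square difference of centred log2 CPM over the 6 libraries, among the 19119 other genes tested. Nearest to the CD3 sum were Parm1, Gm42970, Zpbp, Prrt1 and Gm26814, at 0.142 to 0.201, where the median of all genes was 0.574. Nearest to the sum of Ncr1, Nkg7, Gzma and Gzmb were Gm35696, Artn, Gm6598, Olfr825 and Gimap3, at 0.120 to 0.144, where the median was 0.487. With 6 libraries and so many genes, such distances describe the profiles only.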

How the data were processed

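RNA of 6 nerve libraries, 3 female and 3 male, was sequenced in paired reads of 100 nt from stranded, poly-A selected libraries of 500 ng RNA, per the labels' protocols. Trimmomatic 0.39, Salmon 1.5.2 and MultiQC 1.9 are listed, per the submitters' processing notes. Per the file headers, the authors deposited an estimated count and a TPM value for each of 140789 transcripts; the estimated counts were not normalized, and TPM is computed by Salmon from the counts and effective lengths. Their genome build, annotation and strand setting were not given in the sources used here; antisense reads cannot be told apart. Salmon divides reads between similar transcripts by estimate.

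Counts and TPM were summed per gene, counts rounded, and 19129 of 54309 genes kept by filterByExpr. Libraries were scaled by TMM and female compared with male by edgeR 4.0.16 (quasi-likelihood, robust, no covariate), with Benjamini-Hochberg adjustment over all genes kept. SE is the log2 fold change over the root of F. The fit was tested on simulated counts. Alternatives were RLE scaling, other filters, DESeq2 1.42.0, limma 3.58.1 on log2(TPM + 1) or log2(TPM + 0.1), a block for replicate number, leaving out each library, and female 2 with male 1 left out. Each library pools its own 2 animals, per the labels.

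The 10 genes and 14 other lists were chosen with earlier results of these data known. Named from each list were the 5 genes of highest mean TPM, any past the threshold, and the genes nearest in profile; other names were chosen after their values were seen. Chromosomes and the Trbc sequences are from GENCODE M21, promoters from RefSeq. Some genes of these lists are not reported here.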

Additional observations from a re-analysis of the deposited data

How the results depend on the processing

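All 10 genes stayed above the floor with 10 reads in place of 3. Such a floor covers counting error only. Xist had 264, 14 and 23 reads in males 1 to 3, and Ddx3y had 12 reads in female 3, also above 10. The source of those reads was not tested. Of 14 alternative fits, DESeq2 made 2 calls among the 10 genes, Trbc1 and Lck, and the others made none. The median log2 fold change of the 10 genes kept its direction in all 14, from -0.99 to -0.51. Among single genes Gzmb alone changed sign: it was -0.35 without female 2 (range over libraries left out -0.35 to 1.02), -0.025 without male 1, -0.0026 without male 2 and -0.63 without both libraries with muscle transcripts. Over all genes, 21 calls became 191 without a filter, 871 by DESeq2, 10 by limma on log2(TPM + 1), and 4 to 205 when 1 library was left out: 7, 10 and 205 without females 1, 2 and 3 and 13, 4 and 6 without males 1, 2 and 3. The cause was not tested. With the replicate block, 3 genes were called and none of the 10. The block pairs samples by number only: deviations of same-numbered libraries correlated at -0.139, -0.257 and 0.022. A filter at a mean CPM of 1 left 7 of the 10 genes. Counts of 25 to 242 reads limit what these libraries can show.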
